A study of Oryctolagus cuniculus with 6 samples.

Results

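Chemokines are small secreted proteins that direct the movement of leukocytes, and they are read by G protein-coupled receptors on the cells they attract. They are grouped by the spacing of their first cysteines into the CC, CXC, CX3C and XC families, and a few atypical receptors (ACKR) bind chemokines and remove them without signalling through G proteins. In the retina, fractalkine (CX3CL1) from neurons and its receptor CX3CR1 on microglia form a resident pair, whereas CXCL8 and the monocyte chemokines are made by injured glia, pigment epithelium and leukocytes. The genes described here were taken by name. They were every gene in the files whose symbol is that of a numbered CC or CXC chemokine, of CX3CL1 or XCL1, of a CC, CXC, CX3C or XC receptor, of an ACKR, or of CCRL2 or the chemerin receptor CMKLR1. This gave 47 genes of the 28788 in the files, 24 chemokines and 23 receptors.

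The retinas came from adult rabbits, 3 normal samples (normal 1 to 3) and 3 samples from eyes with experimental proliferative vitreoretinopathy (PVR 1 to 3). The model was made by scleral puncture, withdrawal of some vitreous and injection of platelet-rich plasma in its place. The sources used here give no strain, no time of collection and no account of whether the samples are separate animals, so the p-values measure the spread between these samples, which may be technical. The normal retinas are not described as sham-operated, and puncture, vitreous removal and plasma cannot be told apart.

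Polyadenylated RNA was sequenced, and each library held between 31904593 and 43035080 counted reads. At this depth the limit that a count of 0 allows, 3 counts, corresponds to between 0.0697 and 0.094 CPM (counts scaled to library size) in a library. Normal 2 stood apart in lens genes: 8 of them, among them CRYAA and BFSP1, had 1272380 counts together there, against 486 to 594 in the other normal samples and 8788 to 13023 in the PVR samples. All 10 neural retina markers were present in every sample. The summed level of 13 myeloid and microglial markers was 34.5 to 74.6 CPM in normal retina, lowest in normal 3, and 92.1 to 127 CPM in the PVR samples. On the log2 scale all 13 had positive fold changes, and none was past the thresholds used below. In whole retina, fewer cells of a type and less RNA per cell cannot be told apart.

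Many of these genes had low counts. Of the 47 genes, 3 had no count in any sample, namely CCL11, CCL19 and CCL24, as had 3828 of all 28788 genes. A further 3 never exceeded 3 counts, namely CCL20, CCL21 and CCR8. The other 41 had more than 3 counts in at least 1 sample, 22 had more than 3 counts in every sample, and 16 had at least 10 counts in every sample. The filter on low counts was passed by 28 of the 47 genes (59.6%), against 64.9% of all genes in the files. It kept 11 of 24 chemokines (45.8%) and 17 of 23 receptors (73.9%).

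The 19 genes that did not pass were seen at low counts or in few samples. CXCL9 and CXCL11 were among them because both were abundant in 2 samples only, and they are described with CXCL10 below. The other 17 had at most 17 counts (chemokines) or 20 counts (receptors) in any sample. CCL2, the main monocyte chemoattractant, had 2, 2 and 8 counts in normal 1 to 3 and 9, 7 and 17 counts in PVR 1 to 3. CCR3, an eosinophil receptor, had 20 counts in PVR 2 and at most 1 elsewhere. CCL25 had 6 counts in PVR 1 and at most 1 elsewhere, and CCL17 had 2 and 6 counts in normal 2 and normal 3 and none in the other samples. CCL1 was read in normal 2 only, with 4 counts. ACKR2 had 14 counts in normal 1 and 7 in PVR 3, with 0 or 1 elsewhere. CCL22, CXCL17, CCR6, CXCR3 and XCR1 stayed between 0 and 14 counts. These genes did not enter the filtered comparison below.

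Levels between genes were compared on the FPKM scale, a count scaled to gene length and to library depth. CXCL14, a chemokine of epithelia and neurons, was listed highest, with FPKM values of 52.1, 46.2 and 46.4 in normal 1 to 3 and 51.1, 66.6 and 58.3 in PVR 1 to 3. This rests on a gene model of only 130 bases in the files, whereas the other tested genes ranged from 560 to 16103 bases. Its raw counts were 212 to 326, fewer than those of CX3CL1, so its place in the order depends on that model.

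CX3CL1, the membrane-bound fractalkine, followed among the chemokines by the mean over all samples. Its FPKM values were 7.05, 6.51 and 8.58 in normal 1 to 3 and 6.75, 6.90 and 8.55 in PVR 1 to 3, so the groups covered nearly the same range. Its place was within the spread of the others, as CXCL8 was above it in PVR 1 and PVR 2, CXCL13 in PVR 2 and CXCL10 in normal 2. The highest receptor was ACKR1, the Duffy antigen of venular endothelium and red cells, with FPKM values of 8.63, 8.33 and 5.14 in normal 1 to 3 and 7.08, 9.76 and 6.47 in PVR 1 to 3. CX3CR1 and CXCR4 followed it, with mean FPKM values over all samples of 4.83 and 4.03. The levels of ACKR1 and CX3CR1 overlapped across samples, as did those of CX3CR1, CXCR4 and CXCR6, so the order among these receptors was within their spread. At the other end CCR4 had a mean FPKM of 0.0252.

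**Figure D1:**
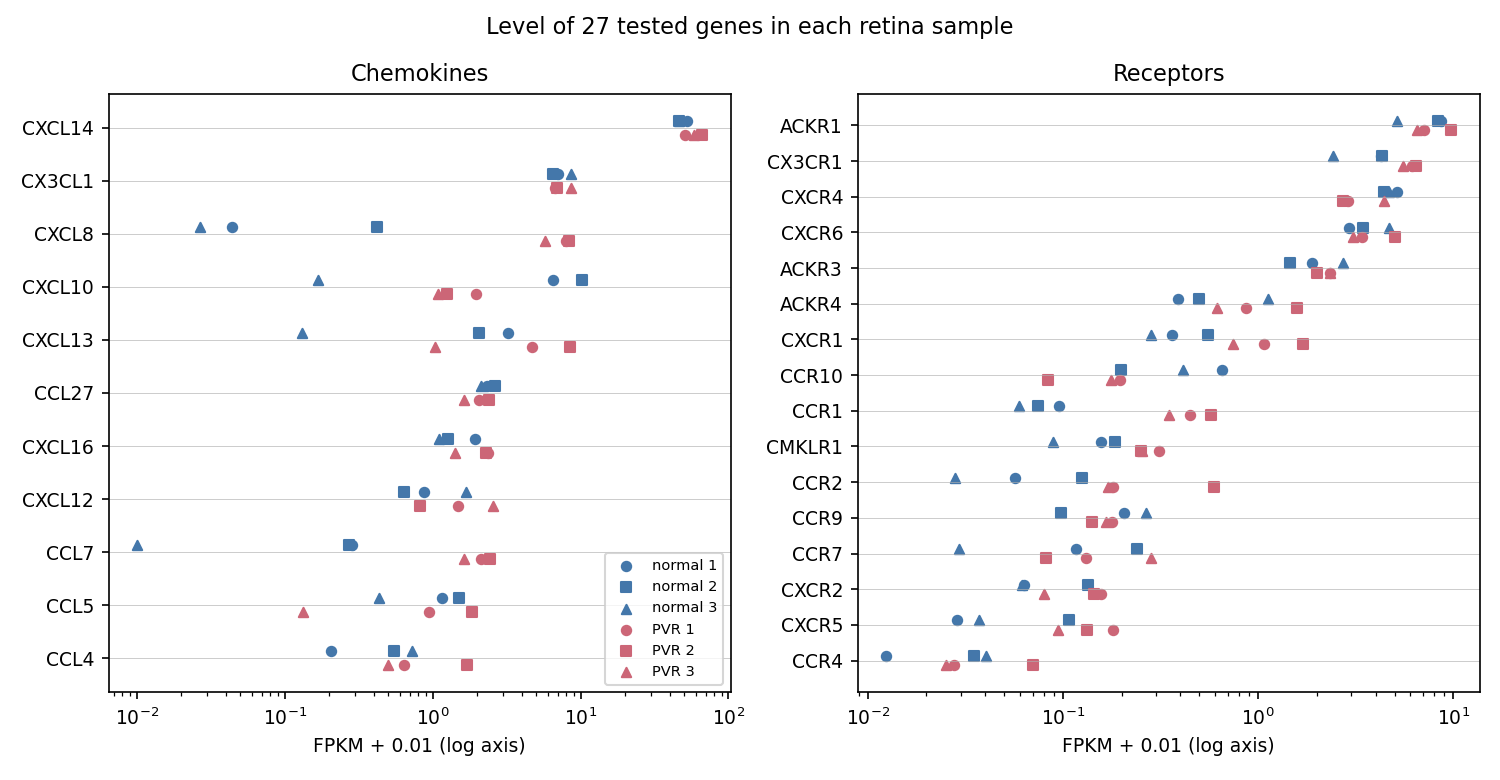
Expression of 27 of the 28 tested genes, with FPKM + 0.01 on a log axis and each point 1 retina sample (blue, normal; red, PVR; circle, square and triangle, replicates 1, 2 and 3). CXCL8 and CCL7 lie far apart between the groups, CXCL10 and CXCL13 are spread within the normal group with normal 3 lowest, and CX3CL1 and ACKR1 lie together.

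PVR was compared with normal by edgeR's quasi-likelihood test over the 18697 genes that passed the filter, and 2 thresholds had to be passed, 0.05 for the adjusted p and 1 for the size of the log2 fold change. Past both thresholds were 2 of the 28 tested genes, CXCL8 and CCR1, each higher in PVR. Both were low in normal retina and passed the filter on low counts only through their PVR samples, as did CCL7 and CCR2. The count of members past the thresholds is therefore a description and not a separate line of support. Over all tested genes 1.01% were past both thresholds. As shares of all tested genes, 0.69% were past them and higher in PVR, and 0.316% past them and lower. The remaining 26 genes were not past both thresholds. At an unadjusted p of 0.05 from edgeR there were 9 of 28 (32.1%), against 21.2% of all tested genes, of which 7 were higher in PVR (11.3% of all tested genes) and 2 lower (9.94% of all tested genes). DESeq2 put 4 of the 47 genes past both thresholds, all higher (CXCL8, CCR1, CCL7 and CXCR1), against 4.02% of all genes it tested, 1.21% lower. The same 9 were the genes whose groups did not overlap on the CPM scale, 7 with PVR above (25%, against 13.4% of all tested genes) and 2 with PVR below (14.6% of all tested genes). The log2 fold change was positive for 19 of 28 genes, with a median of 0.53, and for 48.9% of all tested genes, with a median of -0.01. This covers tested genes only. The filter left out CXCL9 and CXCL11, whose ratios of mean FPKM, PVR to normal, were 0.0496 and 0.0773.

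**Figure D2:**
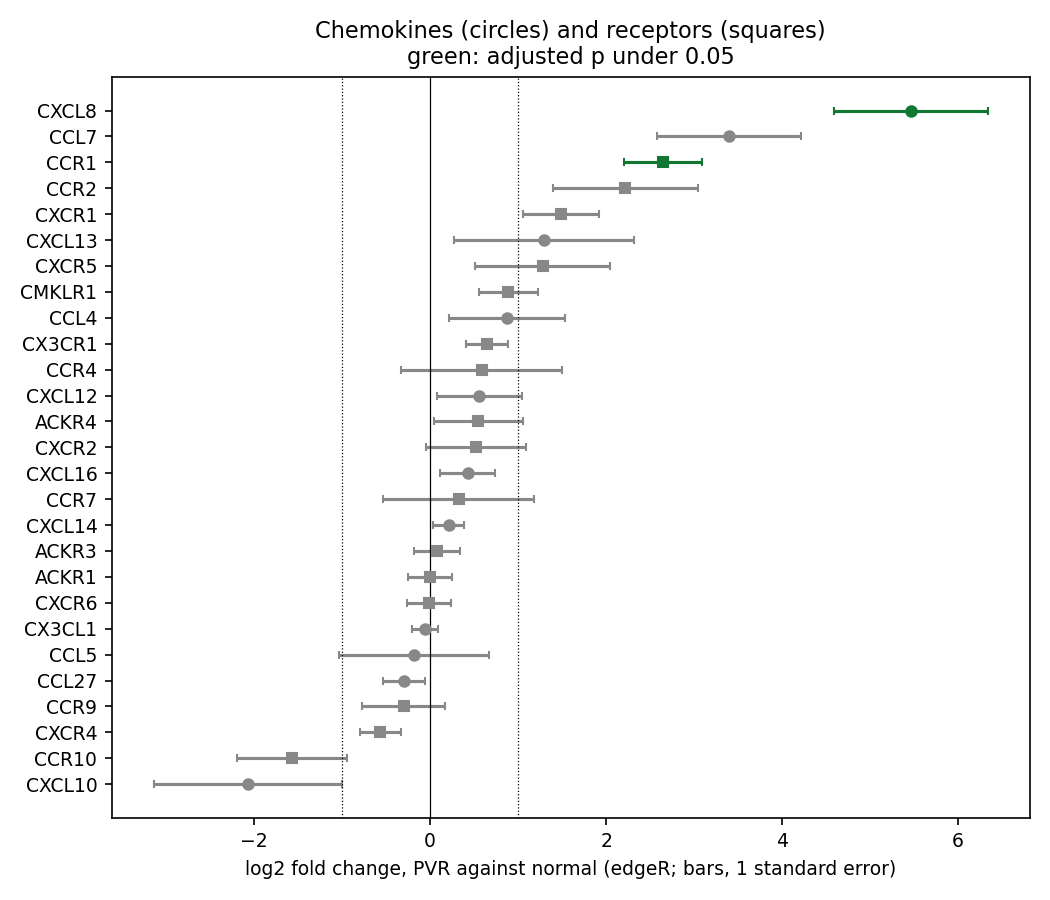
The log2 fold change of PVR against normal for 27 of the 28 tested genes (circles, chemokines; squares, receptors), with bars of 1 standard error (SE) and dotted lines at 1 and -1. CXCL8 (5.47) and CCR1 (2.65), in green, had an adjusted p under 0.05, CCL7 (3.40) lay between them without passing, and CXCL10 (-2.08) had the lowest value with a wide error.

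CXCL8, the chief chemoattractant of neutrophils, rose most. It had 2, 25 and 1 counts in normal 1 to 3 and 383, 405 and 369 counts in PVR 1 to 3. The PVR samples were close to each other and the groups were far apart, with normal 2 the only normal sample above 2 counts. Its mean FPKM was 0.153 ± 0.221 (SD, n = 3) in normal retina and 7.35 ± 1.43 (SD, n = 3) in PVR, a ratio of 48.1. The log2 fold change was 5.47 (SE 0.88, edgeR adjusted p = 0.0359 after Benjamini-Hochberg adjustment). In 10 of the 14 other settings in which it was tested CXCL8 stayed past the thresholds. The adjusted p from edgeR was 0.0973 without normal 1, 0.202 without PVR 1 and 0.0858 without PVR 2. Normal 2 held most of the normal counts, and the log2 fold change was 8.01 without it and from 4.94 to 5.61 with another sample left out.

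CXCL8 is bound by CXCR1 and CXCR2, which neutrophils carry. CXCR1 had 29, 47 and 23 counts in normal 1 to 3 and 72, 115 and 67 counts in PVR 1 to 3. Every PVR sample lay above every normal sample. The mean FPKM was 0.389 ± 0.14 (SD, n = 3) in normal and 1.16 ± 0.478 (SD, n = 3) in PVR, and the log2 fold change was 1.49 (SE 0.43, edgeR adjusted p = 0.123). It was past the thresholds with DESeq2, where the adjusted p was 0.0318, and in no other setting. CXCR2 had 11, 27 and 11 counts across the normal retinas against 25, 23 and 16 in PVR, and the groups overlapped (log2 fold change 0.52, SE 0.56, edgeR adjusted p = 0.619). The 2 receptor genes are neighbours in RefSeq's rabbit assembly mOryCun1.1 and close in sequence, and how reads that fit both were counted is not given in the sources used here, so their separate counts are uncertain.

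Of 4 matched neutrophil markers, 2 were tested and both rose, S100A8 and S100A9, which monocytes also express. The summed level of the 4 matched markers was 0.400 to 1.52 CPM in the normal samples and 6.17 to 14.0 CPM in PVR. These 2 genes made up most of that sum. S100A8, a calcium-binding protein abundant in neutrophils, rose from 24, 5 and 2 counts in normal 1 to 3 to 208, 209 and 136 in PVR 1 to 3 (log2 fold change 4.27, edgeR adjusted p = 0.0486). It passed the filter on low counts only through its PVR samples. Its partner S100A9 rose from 32, 36 and 13 to 186, 257 and 130 counts (log2 fold change 2.96, edgeR adjusted p = 0.0416). The defining marker MPO was at 0 in every sample, and CSF3R, the receptor for granulocyte growth factor, had 0 to 2 counts in normal and 2 to 6 in PVR. The part of neutrophil number in the CXCR1 values was not tested.

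**Figure D3:**
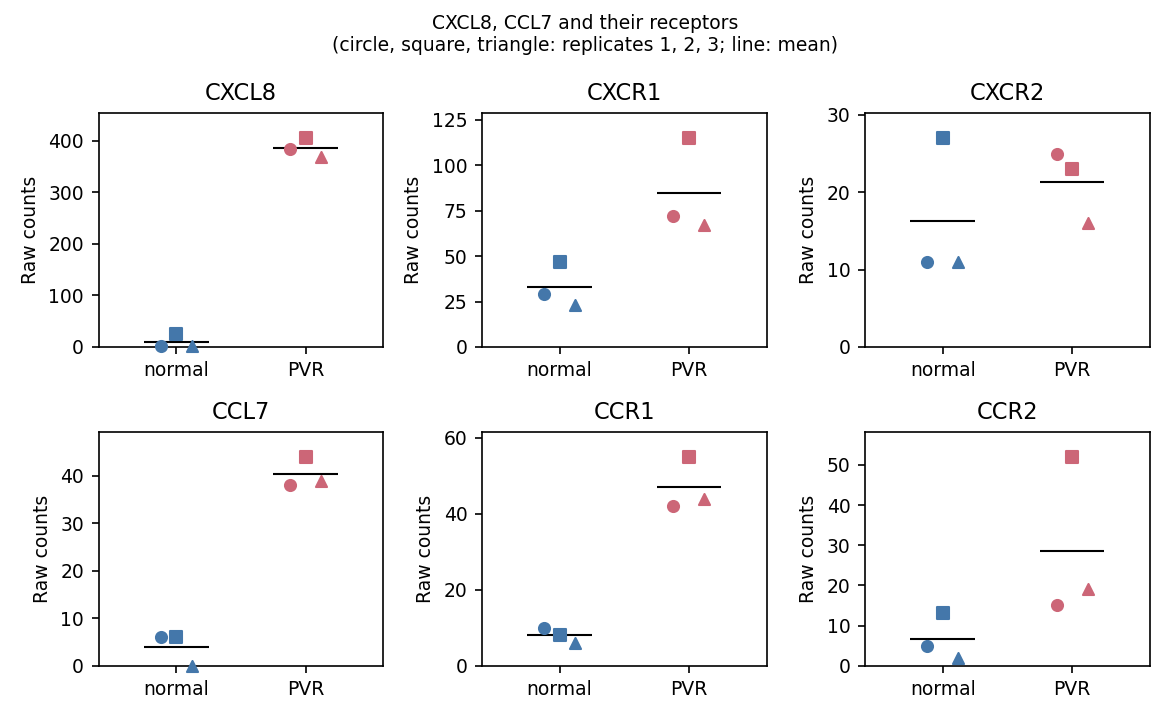
Raw counts of CXCL8, CCL7 and receptors that bind them in the normal and PVR samples (points, samples; line, mean). The groups are apart for CXCL8 (1 to 25 against 369 to 405), CXCR1, CCL7 and CCR1, close together for CCR2, and overlapping for CXCR2.

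Among the monocyte chemokines and their receptors, only CCR1 of those tested was past the thresholds. CCR1, a receptor of monocytes and neutrophils for CCL5, CCL7 and related CC chemokines, had 10, 8 and 6 counts in normal 1 to 3 and 42, 55 and 44 counts in PVR 1 to 3. The groups did not overlap and neither was widely spread. The mean FPKM rose from 0.0664 ± 0.0177 (SD, n = 3) to 0.445 ± 0.112 (SD, n = 3), a log2 fold change of 2.65 (SE 0.44, edgeR adjusted p = 0.0402). CCR1 stayed past the thresholds in 6 of 14 other settings. The adjusted p from edgeR was 0.108 without normal 1, 0.143 without normal 2, 0.0563 without normal 3, 0.223 without PVR 1 and 0.108 without PVR 2. The log2 fold change stayed between 2.46 and 2.86 when a sample was left out.

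CCL7, a ligand of CCR1 and CCR2 that attracts monocytes, had 6, 6 and 0 counts in normal 1 to 3 and 38, 44 and 39 counts in PVR 1 to 3. As with CXCL8, the PVR samples were alike and all above the normal ones. The mean FPKM was 0.179 ± 0.155 (SD, n = 3) in normal and 2.06 ± 0.409 (SD, n = 3) in PVR, and the log2 fold change was 3.40 (SE 0.81, edgeR adjusted p = 0.0859). It was past the thresholds in 4 of 14 other settings, among them DESeq2 (adjusted p = 0.00153) and edgeR without normal 3 (adjusted p = 0.0471). CCL2 and CCL11 are next to CCL7 in RefSeq's assembly. The low counts of CCL2, given above, also did not overlap on the CPM scale, and CCL11 was at 0 throughout.

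CCR2, the receptor of inflammatory monocytes, had 5, 13 and 2 counts across the normal retinas against 15, 52 and 19 in PVR. PVR 2 was far above the others, and the gap between the groups was small (log2 fold change 2.22, SE 0.83, edgeR adjusted p = 0.189). The log2 fold change was 1.37 without PVR 2 and 3.13 without normal 2. The ligands CCL4 and CCL5, which attract monocytes and T cells, overlapped, with log2 fold changes of 0.88 and -0.18, and CCL5 ranged from 5 to 56 counts within the PVR group. CCR2, CCR3 and CCR1 lie next to each other in RefSeq's assembly, and how reads that fit more than 1 CC receptor gene were counted is likewise not given.

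The myeloid markers given above had fold changes of the same sign as these receptors. PTPRC, the pan-leukocyte CD45, had 177, 163 and 44 counts in normal 1 to 3 and 314, 538 and 206 in PVR 1 to 3. Its log2 fold change was 1.61 (edgeR adjusted p = 0.19). The part of leukocyte number in the receptor values was not tested.

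In the resident pair the ligand overlapped between the groups and the receptor did not. CX3CL1 had 866, 837 and 1083 counts in normal 1 to 3 and 679, 704 and 1160 counts in PVR 1 to 3, with a log2 fold change of -0.06 (SE 0.15, edgeR adjusted p = 0.839). Its neighbours CCL22 and CCL17 in RefSeq's assembly had at most 10 counts in any sample. CX3CR1, which marks microglia in the retina, had 506, 538 and 295 counts across the normal retinas against 603, 636 and 728 in PVR. All PVR samples were above all normal samples, with mean FPKM values of 3.64 ± 1.07 (SD, n = 3) and 6.02 ± 0.46 (SD, n = 3). The log2 fold change was 0.65 (SE 0.24, edgeR adjusted p = 0.189), and it was not past both thresholds in any other setting. The microglial markers P2RY12 and TMEM119 were at 0.95 and 0.83 on the log2 fold change scale (edgeR adjusted p = 0.0602 and 0.274). The proteases ADAM10 and ADAM17, which cut CX3CL1 from the membrane, had log2 fold changes of -0.01 and 0.09.

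The chemokines induced by interferon differed widely among the normal samples. CXCL9, CXCL10 and CXCL11 attract activated T cells through CXCR3 and lie next to each other in RefSeq's assembly. CXCL10 had 283, 465 and 7 counts in normal 1 to 3 and 69, 45 and 52 counts in PVR 1 to 3. Normal 1 and normal 2 were above every PVR sample, whereas normal 3 was below them all. The mean FPKM was 5.63 ± 5.09 (SD, n = 3) in normal and 1.42 ± 0.455 (SD, n = 3) in PVR, and the log2 fold change was -2.08 (SE 1.07, edgeR adjusted p = 0.305).

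CXCL9 and CXCL11 followed the same order of samples within the normal group. CXCL9 had 84, 141 and 0 counts in normal 1 to 3 and 0, 6 and 4 counts in PVR 1 to 3. CXCL11 had 73, 87 and 0 counts across the normal retinas against 0, 4 and 8 in PVR. Both were thus abundant in 2 normal retinas and at 0 in normal 3 and PVR 1. Their receptor CXCR3 had 4, 14 and 0 counts across the normal retinas against 4, 2 and 1 in PVR.

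The comparison for these 3 chemokines turned on normal 3. Without it, 5 of the 47 genes, untested ones included, were past both thresholds, against 1.93% of all genes tested then. These 3 were the lower ones, against 0.829% of all genes tested then. CXCL10 then had a log2 fold change of -2.64 (edgeR adjusted p = 0.0151), CXCL9 of -4.95 (edgeR adjusted p = 0.0311) and CXCL11 of -4.25 (edgeR adjusted p = 0.0498). CXCL9 and CXCL11 passed the filter there only through normal 1 and normal 2, where they were high, so their values are a description only. CXCL10 did not pass in the other settings in which it was tested, where its adjusted p ran up to 0.816 with limma-voom. CXCL9 and CXCL11 were tested in 6 settings only, and outside the one without normal 3 their adjusted p ran up to 0.431 and 0.470. IFNG, which induces them, had 0 to 4 counts, and the interferon-response factor IRF1 overlapped between the groups. The summed level of the myeloid and microglial markers was also lowest in normal 3, though not that of each marker. The T cell gene CD3E had 6, 18 and 0 counts in normal 1 to 3 and 9, 19 and 0 counts in PVR 1 to 3. The part of T cells, of myeloid cells or of other tissue in the CXCL9 to CXCL11 values was not tested.

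**Figure D4:**
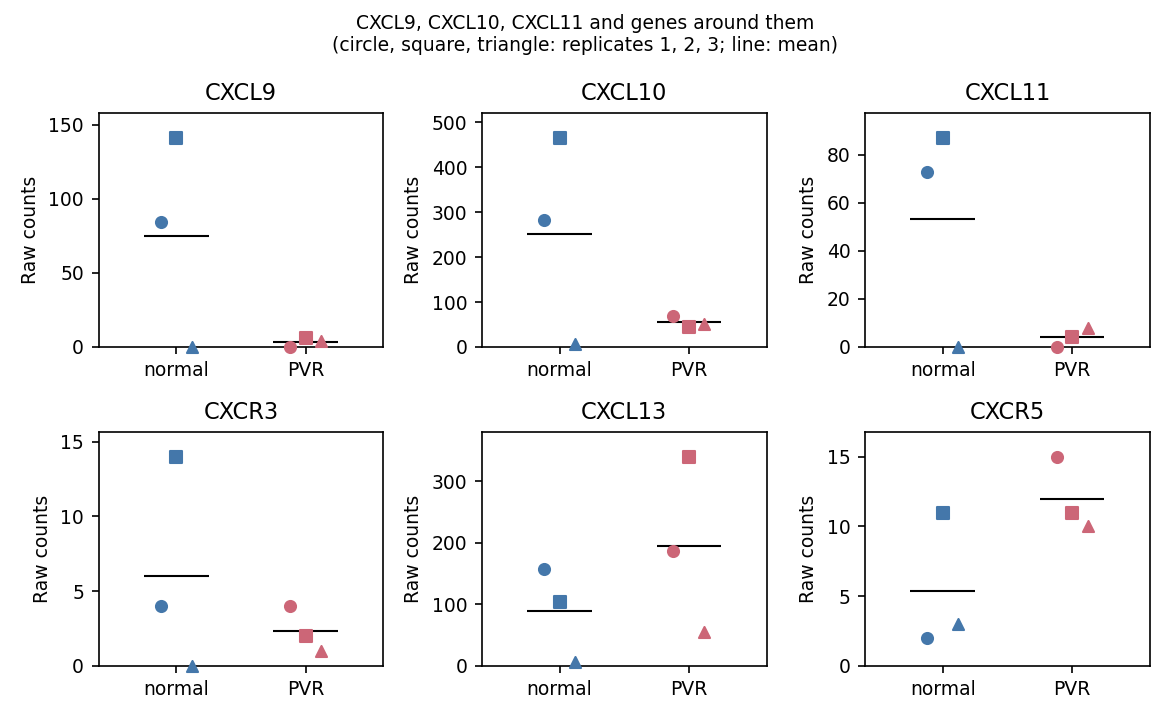
Raw counts of CXCL9, CXCL10, CXCL11, their receptor CXCR3, CXCL13 and its receptor CXCR5 in each sample (points, samples; line, mean). Normal 1 and normal 2 are high for CXCL9 to CXCL11, normal 3 (triangle) is at 0, 7 and 0 counts for the 3 chemokines, and their PVR values lie at or under 69 counts.

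CXCL13, which attracts B cells through CXCR5, was also lowest in normal 3, with 157, 104 and 6 counts across the normal retinas against 187, 340 and 55 in PVR. The groups overlapped (log2 fold change 1.30, SE 1.02, edgeR adjusted p = 0.487). CXCR5 had 2, 11 and 3 counts in normal and 15, 11 and 10 in PVR, and MS4A1, the B cell antigen CD20, had 7, 6 and 0 counts in normal and 16, 27 and 0 in PVR. CXCL13, CD3E and MS4A1 were each lowest, within their group, in normal 3 and in PVR 3. The summed level of 12 T and B cell markers was 1.23 to 3.99 CPM in the normal samples and 2.4 to 6.90 CPM in PVR, and none of the 5 tested was past the thresholds.

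In the CXCL12 axis, which retains leukocytes and guides vessels, CXCR4 lay lower in PVR without passing the test. It had 350, 316 and 330 counts in normal 1 to 3 and 161, 155 and 334 counts in PVR 1 to 3. PVR 3 was much closer to the normal samples than PVR 1 and PVR 2, and the groups were apart on TMM-scaled CPM but not on raw counts or FPKM, where PVR 3 (4.415) was just above normal 2 (4.402). Mean FPKM values were 4.73 ± 0.355 (SD, n = 3) and 3.34 ± 0.937 (SD, n = 3), with a log2 fold change of -0.57 (SE 0.23, edgeR adjusted p = 0.221). The ligand CXCL12 had 152, 116 and 305 counts in normal and 214, 119 and 496 in PVR, and the scavenger ACKR3, which also binds CXCL12, had 161, 129 and 237 counts in normal and 163, 141 and 218 in PVR. Both overlapped between the groups, with log2 fold changes of 0.56 and 0.08.

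The skin-type pair CCL27 and CCR10 held the other receptor whose PVR samples all lay below the normal ones on TMM-scaled CPM. CCR10 had 42, 13 and 27 counts in normal 1 to 3 and 10, 4 and 12 counts in PVR 1 to 3, just apart after scaling (log2 fold change -1.57, SE 0.63, edgeR adjusted p = 0.212). CCL27 had 152 to 193 counts in normal and 117 to 139 in PVR, and overlapped after scaling (log2 fold change -0.30, edgeR adjusted p = 0.486). CXCL16, a membrane-bound chemokine, and its receptor CXCR6 had log2 fold changes of 0.43 and -0.01 with overlapping groups. CCR9, CCR7 and CCR4, receptors of lymphocytes, had values of -0.30, 0.33 and 0.59 with standard errors from 0.47 to 0.92. The scavenger ACKR4, which clears CCL19, CCL21 and CCL25, had 36 to 109 counts in normal and 64 to 125 in PVR.

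ACKR1 had 840, 849 and 514 counts in normal 1 to 3 and 564, 789 and 695 in PVR 1 to 3, and the groups overlapped (SE of the log2 fold change 0.25, edgeR adjusted p = 0.999). The summed level of 8 platelet and red cell markers was 32.5 to 37.5 CPM in normal retina and 15.8 to 25.4 CPM in PVR. The haemoglobin genes HBA and HBB made up most of that sum. The platelet genes went both ways, with log2 fold changes of 1.80 for PPBP, 0.79 for GP9, -0.53 for ITGA2B and -0.94 for TUBB1. The part of red cells or platelets in the ACKR1 values was not tested. Among endothelial markers VWF fell from 228, 620 and 950 counts to 14, 13 and 25 (edgeR adjusted p = 0.0119). CDH5 also fell, but passed the filter on low counts only through the normal samples. CLDN5 had 43, 139 and 296 counts in normal and 11, 3 and 24 in PVR (edgeR adjusted p = 0.0781), whereas FLT1 had a log2 fold change of 0.27. Of the 10 endothelial markers 2 fell past the thresholds, against 0.316% of all tested genes, and the other 8 did not pass. The log2 fold change was negative for 7 of the 10 and positive for 3.

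Chemerin, encoded by RARRES2, is an attractant of macrophages and dendritic cells that acts on CMKLR1 and CMKLR2. CMKLR1 had 92, 115 and 51 counts in normal 1 to 3 and 154, 125 and 169 counts in PVR 1 to 3. The groups were apart after scaling (log2 fold change 0.89, SE 0.34, edgeR adjusted p = 0.195). RARRES2 rose from 181, 245 and 339 counts to 616, 616 and 834 (log2 fold change 1.53, SE 0.22, edgeR adjusted p = 0.0271). CMKLR2 overlapped, with 26, 79 and 27 counts in normal and 31, 11 and 38 in PVR.

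RARRES2 belongs to a list of 17 other genes of the chemokine system, of which 3 were higher past the thresholds (0.69% of all tested genes), none was lower and 14 did not pass, with a median log2 fold change of 0.44. The other 2 were the formyl peptide receptors, which guide neutrophils and monocytes. FPR1 had 0, 1 and 0 counts in normal 1 to 3 and 14, 21 and 29 in PVR 1 to 3 (edgeR adjusted p = 0.0382), and FPR2 had 2, 1 and 0 against 50, 48 and 60 (edgeR adjusted p = 0.0164). No fold is given because the normal samples were at or under 3 counts, and both genes passed the filter only through the PVR samples. The platelet chemokine PPBP had 1, 18 and 0 counts in normal and 11, 25 and 28 in PVR, which overlapped (edgeR adjusted p = 0.394). MIF and its receptor CD74 had log2 fold changes of -0.49 and 0.63. In the same files CCL14 and CCRL2 stand under RefSeq gene identifiers and were found after the values had been seen. CCL14 had 6, 5 and 9 counts in normal and 16, 26 and 47 in PVR (log2 fold change 2.18, edgeR adjusted p = 0.087), and passed the filter only through the PVR samples. CCRL2 had 2 to 15 counts and did not pass the filter.

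Downstream of the receptors, none of 29 genes of chemokine receptor signalling was past both thresholds, and their median log2 fold change was 0.01. At an unadjusted p of 0.05 from edgeR there were 6 of 29, against 21.2% of all tested genes, and DESeq2 called 1, NCF1, against 4.02% of all genes it tested. RGS2, which shortens G protein signalling, had an adjusted p of 0.0322 from edgeR at a log2 fold change of 0.67, under the fold threshold. The broadly expressed RAC1 had a log2 fold change of -0.29. DOCK2, PIK3R5 and NCF1, which act mainly in leukocytes, had values of 0.88, 1.58 and 2.0, and in all 3 the PVR counts lay above the normal ones after scaling.

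Among 20 inducers and cytokines, 15 were tested and none was past both thresholds, with 5 at an unadjusted p of 0.05 from edgeR (21.2% of all tested genes) and 2 called by DESeq2, IL1B and TLR4 (4.02% of all genes it tested). IL1B, a strong inducer of CXCL8, had 1, 9 and 1 counts in normal 1 to 3 and 42, 40 and 44 in PVR 1 to 3 (log2 fold change 3.58, SE 0.78, edgeR adjusted p = 0.0718). It passed the filter on low counts only through its PVR samples, so its values are a description only. The part of IL1B in the CXCL8 values was not tested. TNF and IL6 had at most 11 and 5 counts. The NF-kB subunits NFKB1 and RELA had log2 fold changes of 0.32 and 0.33, and TLR4 of 1.20.

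Among 14 matched genes of leukocyte adhesion and entry, 12 were tested, none was past both thresholds, 6 had an unadjusted p under 0.05 from edgeR, against 21.2% of all tested genes, and DESeq2 called 3 (ICAM1, ITGAM and ITGB2), against 4.02% of all genes it tested. Their median log2 fold change was 0.93, against -0.01 over all tested genes. ICAM1, the endothelial and glial ligand of leukocyte integrins, had 74, 93 and 11 counts in normal 1 to 3 and 207, 210 and 299 in PVR 1 to 3 (log2 fold change 2.08, edgeR adjusted p = 0.133). ITGA4 had an adjusted p of 0.0403 from edgeR at a log2 fold change of 0.94, under the fold threshold. The selectins SELP and SELE had at most 6 counts in any sample.

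**Figure D5:**
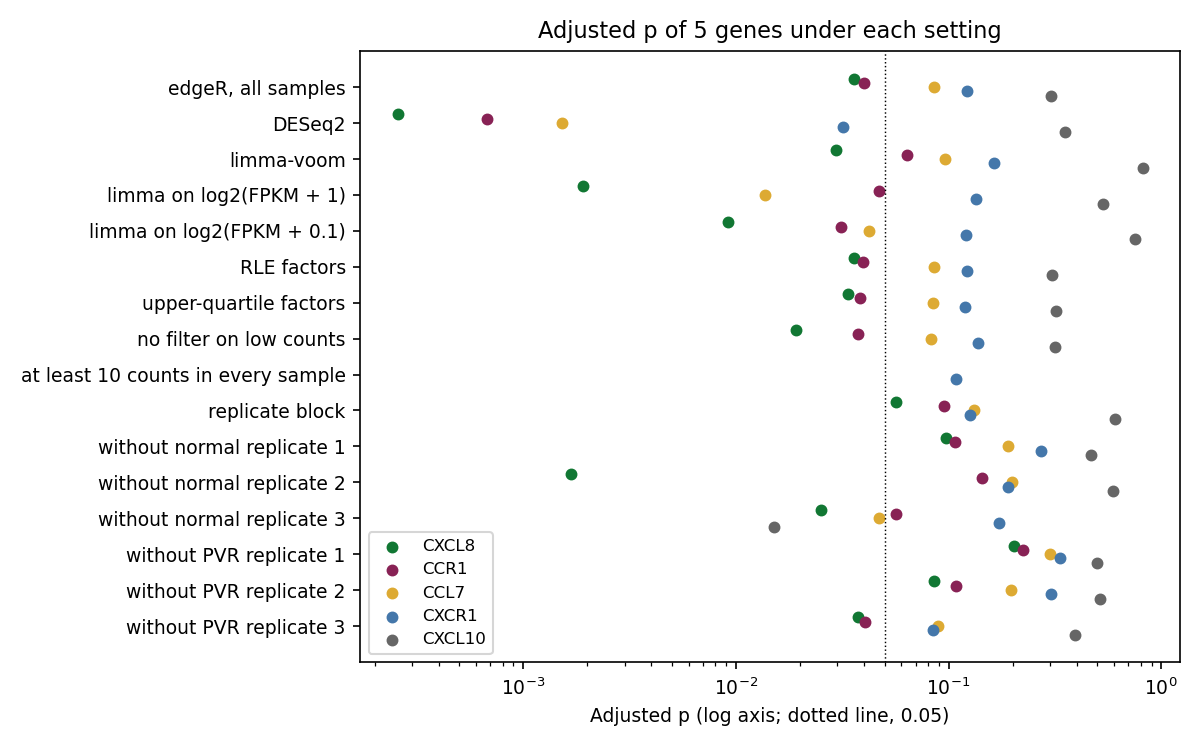
Adjusted p of CXCL8, CCR1, CCL7, CXCR1 and CXCL10 under each setting (log axis; dotted line at 0.05; a missing point was not tested). CXCL8 crosses the line without normal 1, PVR 1 or PVR 2 and with the replicate block, and CXCL10 passes only without normal 3; CCR1 on log2(FPKM + 1) is left of the line but under the fold threshold.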

How the data were processed

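The authors sequenced polyadenylated RNA of rabbit retina, 3 normal and 3 PVR. Per the labels and the paper's methods, reads were processed with fastp, aligned to OryCun2.0 with HISAT2 and counted per gene with htseq-count. The authors deposited raw counts and FPKM values, and a count divided by its FPKM gave the same length for a gene in every sample (largest relative difference 4.24e-09). The strand setting is not given in the sources used here.

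Counts were tested in R 4.3.3 with edgeR 4.0.16 (default low-count filter, TMM factors, quasi-likelihood test, Benjamini-Hochberg adjustment over 18697 genes). The standard error is the log2 fold change divided by the square root of F. Alternatives used DESeq2 1.42.0, limma 3.58.1, other factors and filters, and left-out samples. CPM values are TMM-scaled. A gene at 3 counts or fewer was taken as at the limit of detection, which covers counting error only, since no molecular identifiers are stated.

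Members and lists were chosen with earlier results of these data known. Named genes are tested members past an unadjusted p of 0.05, with groups apart, or among the 3 highest chemokines or receptors by mean FPKM, the other members by values or range, and genes of the lists. CD3E, MS4A1, PTPRC, VWF and similar markers come from lists of cell type markers. Lists were matched by symbol or by RefSeq gene identifier of mOryCun1.1, another build than that of the files, used for names and neighbours only. Protein and promoter sequences were not used here. Some genes, 1 of them a tested member, are counted in the totals and not reported here by name or in the plots.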

Additional observations from a re-analysis of the deposited data

How the results depend on the processing

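Of the log2 fold changes of the 28 tested genes under the 15 alternatives, 390 stayed on their side of the thresholds, 12 lost a call and 6 gained one; no called gene changed direction. The number of chemokine and receptor genes past both thresholds, 2 with edgeR, was 4 with DESeq2 (with CCL7 and CXCR1 added), 1 with limma-voom and 0 under a minimum of 10 counts per sample, where CXCL8, CCR1 and CCL7 were not tested. It ranged from 0 to 5 with a sample left out. Over all genes the number was 188, and it was 807 with DESeq2, 87 with limma on log2(FPKM + 1) and 22 to 436 with a sample left out. Every left-out sample moved the latter by over 1.5 times: 81, 64 and 370 genes passed without normal 1, 2 or 3, and 22, 93 and 436 without PVR 1, 2 or 3. The members past the thresholds then numbered 0, 1 and 5, and 0, 0 and 2. Depth limits the 17 members under the filter other than CXCL9 and CXCL11, which had at most 20 counts in any sample. Applied to the lists after the data were seen, the alternatives gave 1 of the 17 related genes on log2(FPKM + 1), 1 under the minimum of 10 counts and 0 to 2 with a sample left out, against 3. DESeq2 called 1 signalling gene, 2 inducers and 3 adhesion genes where edgeR called none, limma on log2(FPKM + 0.1) called 1 inducer, and with a sample left out there were 0 to 1 inducers and 0 to 2 adhesion genes.

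The replicate numbers are shared by the groups but do not pair the samples: the correlations of same-numbered samples, taken as deviations from their group means over all tested genes, were -0.0129, 0.0734 and 0.0417. Of the 6 samples, 3 correlated best with their own number and 3 did not. With the replicate block, 0 members, 82 genes over all and 0 of the 17 related genes were past both thresholds. CXCL8 then had an adjusted p of 0.0569 and CCR1 of 0.0954 from edgeR.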
